A study of Mus musculus with 12 samples.

Results

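Transcripts of 10 genes known from tissue macrophages were measured in mouse dorsal root ganglia (DRG). They are 10 of the 44345 gene names in each deposited count table. They were taken by symbol: the receptor genes Mertk, Csf1r and Cx3cr1, the scavenger receptor genes Mrc1 and Cd163, the macrophage markers Cd68 and Aif1, and C1qa, C1qb and C1qc, whose products form complement C1q. All 10 symbols had a row in both preparations, and all 10 passed the filter on low counts in both. The set was proposed with earlier results of these libraries known, and the higher Mertk level in whole ganglia of enriched mice was one of them. Housing values of the 10 genes in whole ganglia are therefore given as a description, without p-values, and counts past a threshold there stand only beside the share over all genes.

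In a DRG, the cell bodies of sensory neurons are each wrapped by satellite glia, and macrophages lie between these units and along the vessels. Ganglion macrophages are known for clearing dying cells and myelin debris and for taking up blood-borne material, since the capillaries of the ganglion are leaky. Their survival depends on signals through the CSF1 receptor, and clearance of dying cells runs through receptors of the TYRO3, AXL and MERTK family, which bind phosphatidylserine on the dying cell by way of GAS6 or protein S. MERTK is also known from other phagocytic cells, glia among them.

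The mice were C57BL/6 animals of 5 to 8 weeks, housed for 10 days either in standard housing (SH) or with environmental enrichment (EE). Whole DRG came from pools of 2 mice per library, and large neurons, at least 30 µm in diameter and cut out of sections by laser, from 3 mice per library. Each of the 4 groups had 3 libraries, 12 in all. The deposited column names of the whole DRG libraries carry the word Sham in both housings, and those of the captured libraries do not. The sample titles do not mention a sham procedure, so what the word marks is left unknown here. Whether libraries within a group come from different mice is not stated in the labels; p-values thus reflect library-to-library spread alone, and this may be technical.

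Whole and captured preparations differed in more than the capture. Whole DRG RNA (RNA integrity number above 7.5) was made into libraries with a TruSeq mRNA kit, and captured RNA (integrity number 6 to 7) with a RiboZero ScriptSeq kit. Reads were 100 bases long on lanes 4 to 6 in whole DRG, and 125 bases long on lanes 1 to 3 in captured libraries. Between preparations no test was therefore run, because kit, capture, read length, lanes and the Sham label go together and cannot be told apart. Between 11343579 and 17036481 reads fell into genes in the whole DRG libraries and between 19296230 and 29434351 in the captured ones. The summed level of 13 neuron markers was 23210 to 26050 CPM (counts scaled to the reads in genes of each library) in whole DRG and 13660 to 20260 CPM in captured libraries, so the captured libraries were not higher in these markers. The median of 12 myelinating Schwann cell markers was 5.22-fold lower in captured than in whole libraries of SH mice. That of 15 satellite glia markers was 1.59-fold lower, so the captured libraries still held glial transcripts. In bulk samples, fewer cells of a type and less RNA per cell cannot be told apart.

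The members lie apart in the genome except for the C1q genes, which sit side by side on the minus strand of chromosome 4 (mm10): C1qb at chr4:136880129-136886187, C1qc at chr4:136889804-136893065 and C1qa at chr4:136895917-136898803. Mertk spans chr2:128698956-128802894 on the plus strand, and Mrc1 chr2:14229392-14332057 on the plus strand. Exons of Csf1r and Cx3cr1 overlap exons of a gene on the opposite strand, so if reads were counted without strand their counts may hold reads of those neighbours. The stretch just before the start site is shown for Mertk, whose whole-DRG libraries did not overlap between the housings, for the neighbouring C1qb and C1qc, and for Mrc1, which was higher in captured libraries. Capitals mark GAGGAA or its reverse complement TTCCTC, the core that the macrophage factor PU.1 is known to bind (RefSeq, GRCm38.p6, 5′ to 3′ on the gene's strand). Each stretch was limited to bases outside annotated exons. The stretches are chr2:128698665-128698914 (plus) for Mertk, chr4:136886201-136886450 (minus) for C1qb, chr4:136893066-136893164 (minus) for C1qc and chr2:14229164-14229391 (plus) for Mrc1.
Mertk: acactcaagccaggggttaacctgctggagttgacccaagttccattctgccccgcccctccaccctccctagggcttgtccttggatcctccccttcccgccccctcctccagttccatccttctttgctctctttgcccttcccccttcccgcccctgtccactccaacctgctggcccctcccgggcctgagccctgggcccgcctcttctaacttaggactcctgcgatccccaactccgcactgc
C1qb: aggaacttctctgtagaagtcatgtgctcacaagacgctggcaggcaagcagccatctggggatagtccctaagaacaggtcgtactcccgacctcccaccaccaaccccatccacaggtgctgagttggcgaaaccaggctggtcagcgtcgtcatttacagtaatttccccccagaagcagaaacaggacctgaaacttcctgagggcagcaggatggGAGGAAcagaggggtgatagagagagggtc
C1qc: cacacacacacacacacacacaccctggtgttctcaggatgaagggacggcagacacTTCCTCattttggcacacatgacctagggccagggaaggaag
Mrc1: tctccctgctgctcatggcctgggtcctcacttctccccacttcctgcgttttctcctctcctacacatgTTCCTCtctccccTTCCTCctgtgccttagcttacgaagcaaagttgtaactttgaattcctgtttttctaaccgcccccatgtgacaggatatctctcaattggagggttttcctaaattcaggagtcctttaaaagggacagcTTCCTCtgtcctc
The core stood 3 times before Mrc1, 1 time before C1qb and 1 time before C1qc, and these letters were not in the Mertk stretch. Promoters of 8 members in the RefSeq table were searched, and the other members are not in this count. Of the 8, 5 (Mrc1, C1qb, C1qc, Cd68 and Aif1) held the core in the 250 bases before a listed start site on either strand. The same was true of 23.3% of all 32851 promoters in that table. A match of letters is a description and not a site of binding.

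C1q transcripts made up most of the set in whole DRG once length was taken into account. Per kilobase of gene (the authors' FPKM, fragments per kilobase of gene, scaled to sequencing depth), C1qb stood highest in whole DRG of SH mice at 15.3 ± 0.81 FPKM (SD, n = 3), followed by C1qa at 11.6 ± 0.91 and C1qc at 5.46 ± 0.17. The 3 are chains of the recognition molecule that opens the classical complement cascade. Mertk followed at 3.94 ± 0.87 FPKM and Csf1r, the receptor for CSF1 and IL-34, at 3.84 ± 0.42, with overlapping libraries. Cd68, a lysosomal membrane glycoprotein gene (2.199 ± 0.40), and Mrc1, the mannose receptor gene (2.15 ± 0.31), also overlapped. Cd163, which encodes the receptor for haemoglobin bound to haptoglobin (1.25 ± 0.46), and Aif1, which encodes the calcium-binding protein IBA1 (1.23 ± 0.14), overlapped too. Cx3cr1, the fractalkine receptor gene, was lowest at 0.696 ± 0.079 FPKM. In whole DRG of EE mice the order changed at 1 place among the leading genes: Mertk at 6.31 ± 1.17 FPKM stood above C1qc at 5.11 ± 0.41, with overlapping libraries.

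**Figure D1:**
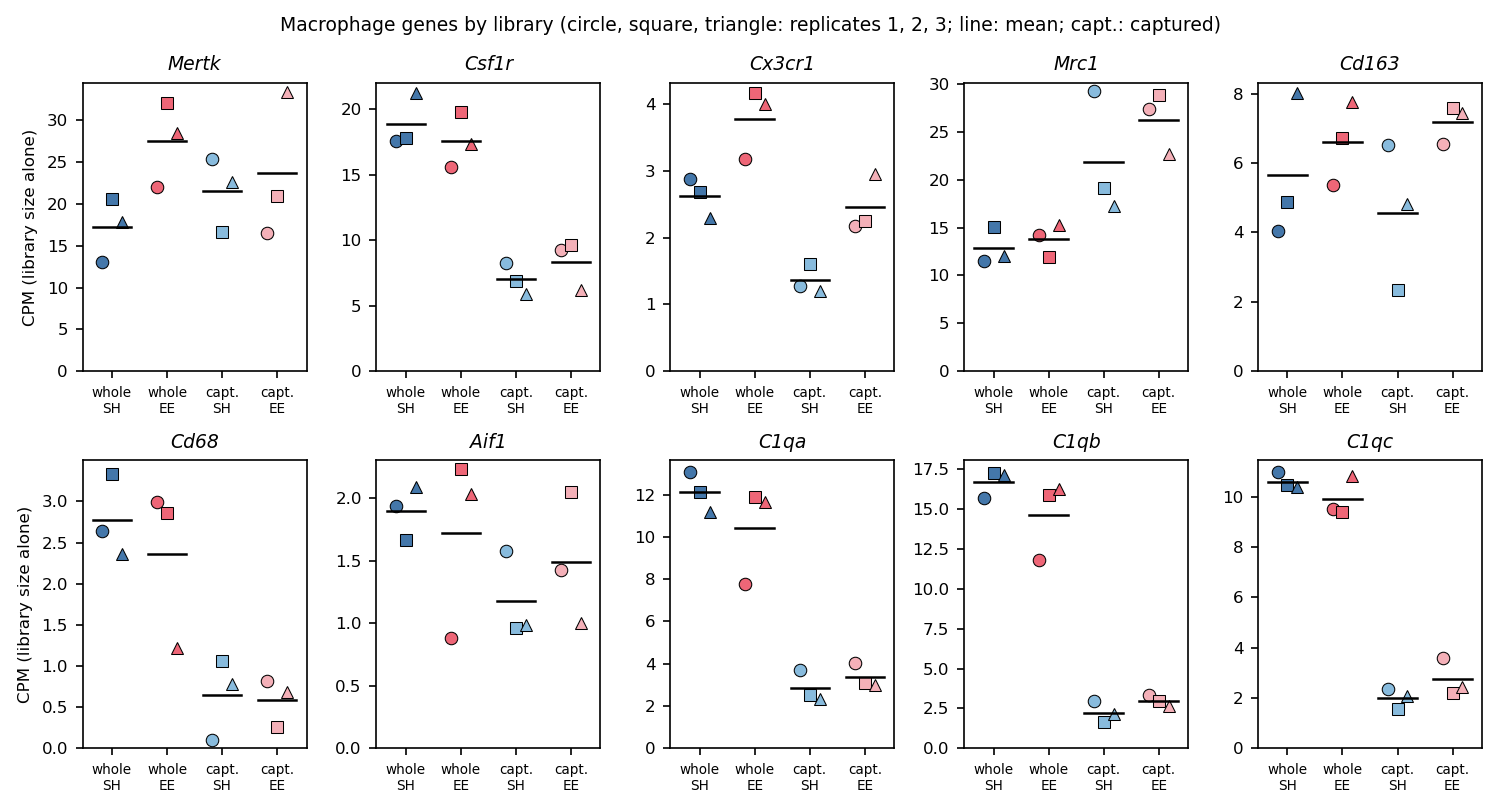
Level of each of the 10 genes (vertical axes, CPM, each from 0) in the 12 libraries, grouped by preparation and housing (horizontal axis, capt. for captured neurons). Markers stand for libraries by replicate number and lines for group means; Mertk in whole DRG lies at 13.1 to 20.6 CPM in SH and 22.0 to 32.1 in EE, and the C1q genes lie lower in every captured library than in any whole DRG library.

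Mertk, the clearance receptor gene, was at 13.1, 20.6 and 17.9 CPM in whole DRG of SH mice and at 22.0, 32.1 and 28.4 CPM in those of EE mice. Every EE library lay above every SH library, although EE replicate 1 (22.0) and SH replicate 2 (20.6) were close. The means were 17.2 ± 3.803 and 27.5 ± 5.09 CPM (SD, n = 3 each), a log2 fold change of 0.70 (SE 0.15). Whole DRG libraries of equal replicate number shared a sequencing lane, and within the 3 lanes the EE library was 1.68-, 1.56- and 1.59-fold higher. With the replicate number as a block the log2 fold change was 0.69.

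Other genes of the MERTK system had log2 fold changes nearer 0 in whole DRG. Tyro3 and Axl, the sister receptors, had log2 fold changes of −0.075 (SE 0.081) and 0.060 (SE 0.097). Gas6, the ligand shared by the 3 receptors, was at 178 ± 6.77 CPM in SH and 159.7 ± 15.2 in EE (log2 fold change −0.14, SE 0.073). Pros1, which encodes protein S, was at 22.9 and 22.3 CPM (log2 fold change −0.023, SE 0.11). Whether Mertk differs from these genes in its housing effect was not tested.

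Cx3cr1, through which macrophages read fractalkine from neurons, was at 2.88, 2.69 and 2.29 CPM in whole DRG of SH mice and at 3.17, 4.17 and 3.99 CPM in those of EE mice. The groups did not overlap, but SH replicate 1 and EE replicate 1 lay close. Its log2 fold change was 0.54 (SE 0.19). Csf1r was at 17.6, 17.8 and 21.2 CPM in SH and at 15.6, 19.8 and 17.4 in EE. These overlapped, and the log2 fold change of −0.088 was smaller than its SE of 0.11.

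The ligand genes of these receptors lay near equal in both housings of whole DRG. Csf1 was at 31.3 and 32.4 CPM (log2 fold change 0.065, SE 0.084), Il34 at 28.8 and 28.2 (−0.014, SE 0.11) and Cx3cl1, the fractalkine gene, at 4.85 and 4.57 (−0.067, SE 0.17).

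The scavenger receptor genes overlapped between the housings in whole DRG. Mrc1 was at 11.6, 15.0 and 12 CPM in SH and 14.3, 11.96 and 15.2 in EE (log2 fold change 0.12, SE 0.13). Cd163 was at 4.05, 4.86 and 8.02 CPM in SH and 5.38, 6.71 and 7.74 in EE (0.25, SE 0.22), with SH replicate 3 the highest of all 6 libraries. Hp, the haptoglobin gene, and Hmox1, which encodes the enzyme that breaks down haem, had log2 fold changes of 0.33 (SE 0.41) and 0.012 (SE 0.091).

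C1qa, C1qb and C1qc were a little lower in whole DRG of EE mice by the mean, and the libraries overlapped for each. C1qb was at 15.7, 17.3 and 17.1 CPM in SH and 11.8, 15.9 and 16.2 in EE (log2 fold change −0.17, SE 0.12). C1qa was at 13.1, 12.1 and 11.2 CPM in SH and 7.76, 11.9 and 11.7 in EE (−0.21, SE 0.15). C1qc was at 10.98, 10.5 and 10.4 CPM in SH and 9.52, 9.41 and 10.8 in EE (−0.086, SE 0.12). For C1qa and C1qb EE replicate 1 was the lowest library, and without it the values were −0.046 and −0.053. C1ra and C1s1, whose products are the proteases that C1q carries, had log2 fold changes of −0.17 (SE 0.18) and 0.057 (SE 0.15).

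Cd68 and Aif1 were low, and their libraries overlapped. Cd68 was at 2.64, 3.34 and 2.36 CPM in SH and 3.00, 2.85 and 1.22 in EE (−0.22, SE 0.28), and Aif1 at 1.94, 1.67 and 2.09 in SH and 0.882, 2.24 and 2.04 in EE (−0.12, SE 0.29). Leaving out EE replicate 3 turned Cd68 to 0.091, and leaving out EE replicate 1 turned Aif1 to 0.17.

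Of the 10 genes, 0 passed an adjusted p of 0.05 in whole DRG, where 1 of 15845 genes tested did (0.00631%; edgeR quasi-likelihood test, Benjamini-Hochberg adjusted). At an unadjusted p under 0.05 it was 2 of 10 members and 459 genes. With the replicate block it was 1 of 10, Mertk, against 0.202% of all genes. Groups that did not overlap, with EE higher, were 2 of 10 (Mertk and Cx3cr1) against 2.69% of genes, and with EE lower 0 of 10 against 4.92%. Positive log2 fold changes were 4 of the 10, with a median of −0.087, beside 51.3% and 0.0028 over all genes tested. Since earlier results of this contrast were known when the genes were chosen, nothing is read from these counts.

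Related gene lists in whole DRG had 0 genes past the threshold. Of 25 core macrophage genes 14 were positive (median 0.025), led by Cd53 at 0.33 (SE 0.17) and Adgre1, the F4/80 gene, at −0.32 (SE 0.19). Their summed level was 839.5 to 870.3 CPM in SH and 852.9 to 876 in EE. Of 26 genes of phagocytosis 15 were positive (median 0.023), with the lipid scavenger receptor gene Cd36 at 0.47 (SE 0.22). Of 18 complement genes 12 were positive (median 0.055), with the C3a receptor gene C3ar1 at 0.70 (SE 0.28). Of 12 genes of resident and perivascular macrophages 6 were positive, with Cbr2 at −0.59 (SE 0.28), and of 7 MHC class II genes 0 were positive (median −0.15). Over the alternatives 0 to 3 MHC class II genes were positive, with medians from −0.30 to −0.025. Their summed levels overlapped, at 121.6 to 137.9 CPM in SH and 91.3 to 138.9 in EE, with EE replicate 1 the lowest.

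Markers of blood-borne myeloid cells stood higher by the median in the same EE libraries: 8 of 9 monocyte genes (median 0.41, with Ccr2 at 0.41, SE 0.15) and 11 of 12 neutrophil genes (0.41) were positive. Without EE replicate 2 these were 6 of 9 (median 0.031) and 7 of 12 (0.14). Over all alternatives the medians ran from 0.031 to 0.49 for monocytes and, with 0.85 reached without SH replicate 2, from 0.14 to 0.85 for neutrophils. Without SH replicate 1 the monocyte median was 0.19, and without SH replicate 3 the medians were 0.26 and 0.17. Their summed levels overlapped between the housings, at 82.0 to 110.1 CPM in SH and 83.1 to 127 in EE for monocytes and at 85.4 to 224 and 111.5 to 264 for neutrophils. All 6 erythrocyte genes tested were positive as well (median 0.59). With the replicate block 1 monocyte gene, 4 neutrophil genes and 2 erythrocyte genes passed the threshold, where 0.202% of all genes did. Without the block 0 genes of these lists passed. No gene of these lists with a row was at 0 in all libraries. Their part in the Mertk and Cx3cr1 values was not tested.

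Reads of all 10 macrophage genes were found in every library of captured large neurons. Whether they came from the neurons or from other cells in the cut material was not tested. None of the 10 passed the threshold for housing there, although 9 of 10 fold changes were positive. Earlier results of these data were known when the genes were chosen, and the adjusted p-values in captured neurons do not take account of that. Cx3cr1 was at 1.27, 1.61 and 1.19 CPM in captured neurons of SH mice and at 2.17, 2.25 and 2.95 in those of EE mice. The groups did not overlap, and EE replicate 3 was the highest. The log2 fold change was 0.84 (SE 0.26, adjusted p = 0.177, edgeR quasi-likelihood test).

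Cd163 was at 6.52, 2.34 and 4.82 CPM in captured neurons of SH mice and at 6.56, 7.58 and 7.45 in those of EE mice. The groups did not overlap, but SH replicate 1 and EE replicate 1 were nearly equal. The log2 fold change was 0.66 (SE 0.28, adjusted p = 0.294). Without the filter on low counts Cd163 passed the threshold, among 2.48% of the genes then tested.

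Mertk was at 25.4, 16.7 and 22.6 CPM in captured neurons of SH mice and at 16.6, 20.9 and 33.5 in those of EE mice. EE replicate 1 was the lowest and EE replicate 3 the highest of the 6 libraries, so the groups overlapped. Of the captured libraries EE replicate 1 was the only one on lane 1, and SH replicate 2 the only one on lane 2. The log2 fold change was 0.13 (SE 0.23, adjusted p = 0.831), and it was −0.22 without EE replicate 3 and −0.015 without SH replicate 2.

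The C1q genes were higher by the mean in captured neurons of EE mice, within an overlap of libraries. C1qc was at 2.34, 1.56 and 2.07 CPM in SH and 3.601, 2.201 and 2.45 in EE (log2 fold change 0.48, SE 0.26, adjusted p = 0.411). C1qb had a log2 fold change of 0.41 (SE 0.25, adjusted p = 0.450) and C1qa of 0.24 (SE 0.23, adjusted p = 0.663). In the 4 libraries of lane 3, 2 per housing, the values were 0.089, 0.15 and 0.015 for C1qc, C1qb and C1qa.

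Mrc1 was at 29.2, 19.1 and 17.3 CPM in SH and 27.4, 28.8 and 22.7 in EE, with SH replicate 1 the highest library (log2 fold change 0.26, SE 0.17, adjusted p = 0.497). Csf1r was at 8.25, 6.88 and 5.91 CPM in SH and 9.24, 9.63 and 6.22 in EE (0.25, SE 0.19, adjusted p = 0.570). Aif1 lay at 0.963 to 1.58 CPM in SH and 0.999 to 2.05 in EE (0.33, SE 0.35, adjusted p = 0.687). Cd68 rested on 2, 23 and 15 reads in SH and 24, 5 and 15 in EE, and the groups overlapped (−0.13, SE 0.66, adjusted p = 0.942).

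In captured neurons 0 of the 10 genes passed an adjusted p of 0.05, against 0.0185% of 16186 genes tested (3 genes), and 0 of 10 passed with DESeq2 (3.23% of genes, 522) or limma-voom (3 genes). At an unadjusted p under 0.05 it was 2 of 10, Cx3cr1 and Cd163, and 2576 of the 16186 genes. Groups that did not overlap, with EE higher, were the same 2 of 10 against 9.82% of genes, and with EE lower 0 of 10 against 11.1%. The median log2 fold change of the 10 was 0.29, beside −0.00059 over all genes, of which 49.9% were positive. Over the alternatives 8 to 10 were positive. In lane 3 alone, where 4.06% of genes passed, 0 of 10 did, and Cx3cr1 stood at 1.09 (adjusted p = 0.105) and Cd163 at 0.42 (adjusted p = 0.299).

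**Figure D2:**
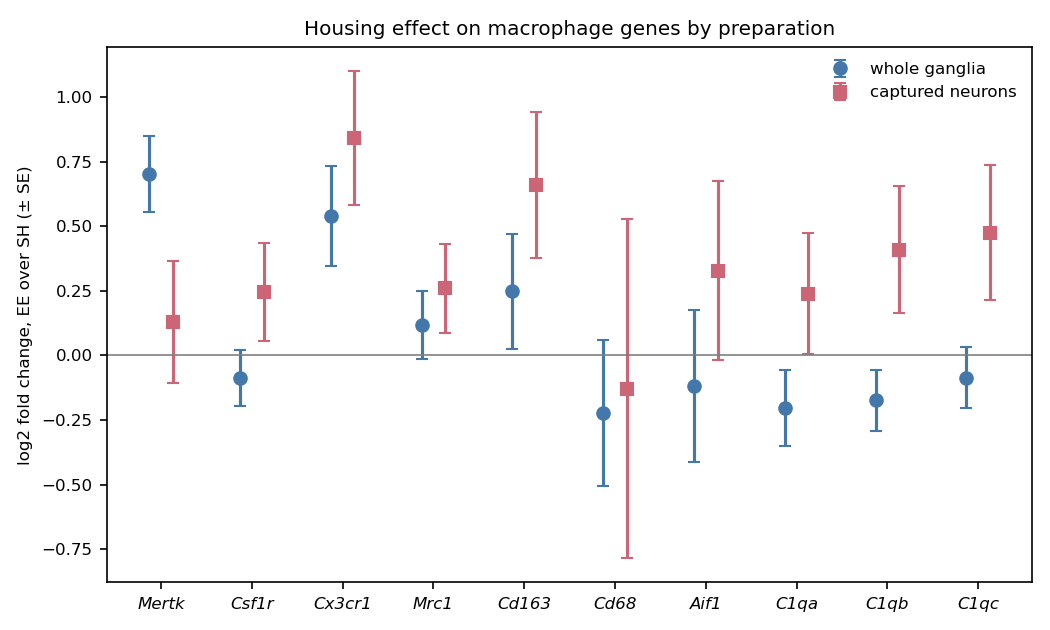
Log2 fold change, EE over SH, with its standard error (vertical axis) for each gene (horizontal axis) in whole DRG and in captured neurons, 3 libraries per group. Mertk stands at 0.70 in whole DRG and 0.13 in captured neurons, while the C1q genes lie below 0 in whole DRG and above 0 in captured neurons.

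Summed markers of satellite glia, of neurons and of the macrophage core did not overlap between the housings in the captured libraries, with EE higher. The same held for the inflammatory activation list (1155 to 1445 and 1668 to 1777 CPM), among others. That list shares Apoe with the satellite glia list, so the 2 sums are not separate. Of its 20 genes 12 passed the filter on low counts in captured libraries. The summed complement list did not overlap with EE lower (1332 to 1349 and 1121 to 1322 CPM). Of single genes, 9.82% did not overlap with EE higher and 11.1% with EE lower. The summed level of 15 satellite glia markers was 2670 to 3131 CPM in SH and 3427 to 3773 in EE, and 14 of 15 were positive (median 0.19). Of these, Fabp7 passed the threshold. The summed level of 13 neuron markers was 13660 to 16040 CPM in SH and 17060 to 20260 in EE, and 10 of 13 were positive (0.18). Endothelial markers were positive in 10 of 12 (0.13), whereas markers of myelinating Schwann cells were positive in 4 of 12 (median −0.067), of fibroblasts and meninges in 5 of 11 (−0.13), of erythrocytes in 2 of 6 (−0.12) and of mast cells in 0 of 3 (−0.12). The macrophage core list was at 516 to 553 CPM in SH and 571.5 to 593 in EE, with 14 of 24 positive (median 0.17). In lane 3 alone 2 core genes, Lgmn and Maf, passed the threshold, where 4.06% of all genes did. The part of the glial and neuronal markers in the member values was not tested.

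The partners of the member genes stayed short of the threshold in captured neurons as well. Gas6 was at 101 ± 12.5 CPM in SH and 135 ± 20.3 in EE (log2 fold change 0.41, SE 0.11, adjusted p = 0.153). In lane 3 alone, where 4.06% of all genes passed, Gas6 did too (0.43, adjusted p = 0.00362). Tyro3 was at 20.6 ± 0.54 and 24.2 ± 1.63 CPM (0.23, SE 0.085, adjusted p = 0.237), and Axl and Pros1 had log2 fold changes of 0.014 and 0.15. Cd47, whose product signals against engulfment, was at 250.6 CPM in SH and 153 in EE (−0.72, SE 0.12, adjusted p = 0.0898), and in lane 3 alone it passed (−0.52, adjusted p = 0.000972). Csf1, Il34 and Cx3cl1 had log2 fold changes of −0.19, 0.37 and 0.060, and of 0.11, 0.31 and −0.15 in lane 3 alone, so Csf1 and Cx3cl1 turned direction. Hp was at 0.239 CPM in SH and 1.12 in EE (2.29, SE 0.85, adjusted p = 0.231; 1.17 in lane 3 alone, adjusted p = 0.579), and Hmox1 at 9.07 and 7.86 (−0.21, SE 0.20).

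Among the related lists in captured neurons, 6 of 17 complement genes were positive (median −0.19), with C1ra at −0.46 (SE 0.22, adjusted p = 0.351). Of 25 phagocytosis genes 15 were positive (0.071), and of 9 genes of resident and perivascular macrophages 6 were (0.22), with F13a1, which encodes a coagulation factor chain of tissue macrophages, at 0.60 (SE 0.21, adjusted p = 0.209). Of 12 genes of haemoglobin uptake by CD163 9 were positive (0.090). The inflammatory activation list had 9 of 12 positive (0.30), and the 5 neutrophil genes tested were negative (−0.67). That neutrophil median ran from −2.70 in lane 3 alone to −0.073 without SH replicate 1, where 3 of 7 were positive. In lane 3 alone 4 of 5 (S100a8, S100a9, Ngp and Ltf) passed the threshold as lower in EE, beside 4.06% of all genes. That fit leaves out EE replicate 1, which ran on lane 1 and had the highest summed neutrophil level of the EE libraries. Over all captured libraries the sums of the 13 listed genes were low and overlapped, at 6.219 to 12.73 CPM in SH and 2.315 to 11.86 in EE.

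The difference between the 2 housing effects, captured minus whole, was −0.58 (SE 0.32) for Mertk and 0.29 (SE 0.32) for Cx3cr1 on the log2 scale. It was 0.58 (SE 0.25) for C1qb, 0.56 (SE 0.26) for C1qc and 0.44 (SE 0.28) for C1qa. It passed the threshold for 0 of the 10 genes and for 0 of 17412 genes (0%), while at an unadjusted p under 0.05 it was 1 of 10 and 2034 genes. DESeq2 called 145 genes and 0 members. Without the filter on low counts 1 of 10, Mertk, passed, where 1.24% of genes did. The difference contains the whole-DRG effect, known when the genes were chosen, so nothing is read from these counts for the members.

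Between preparations, the C1q genes and Cd68 were lower in captured neurons by the largest folds of the 10, and Mrc1 was higher. C1qb was at 16.7 ± 0.88 CPM in whole DRG of SH mice and 2.24 ± 0.66 in captured neurons, 7.44-fold lower, and 4.92-fold lower in EE. C1qc was 5.32-fold lower in SH and 3.61-fold lower in EE, and C1qa 4.25- and 3.095-fold lower. In each case every captured library lay below every whole DRG library. Cd68 was 4.31- and 4.04-fold lower and Csf1r 2.69- and 2.10-fold lower, also without overlap.

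Mrc1 was at 12.9 ± 1.88 CPM in whole DRG and 21.9 ± 6.43 in captured neurons of SH mice, 1.70-fold higher, and 1.90-fold higher in EE. All 6 captured libraries lay above all 6 whole DRG libraries. Mertk was 1.25-fold higher in SH and lower in EE at a ratio of 0.860, with overlap in both. Cd163 overlapped in both housings too. Cx3cr1 was 1.93- and 1.54-fold lower, and Aif1 1.61-fold lower in SH, with overlap in EE.

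In SH 7 of 10 genes were lower in every captured library, where 47.1% of all genes were, and 1 was higher, where 31.4% were. In EE 6 were lower (44.5% of genes) and 1 higher (31.3%). Over both housings together, 5 (Csf1r, Cd68 and the C1q genes) were lower in all 6 captured than in all 6 whole libraries, where 39.5% of genes were, and 1 (Mrc1) was higher, where 25.9% were. The median log2 ratio of the 10 was −1.19 in SH and −0.85 in EE, beside −0.23 and −0.20 over all genes tested. Scaling by TMM over all 12 libraries shifted all log2 ratios up by 0.22 in SH and 0.20 in EE, and Aif1 in SH and Cx3cr1 in EE then overlapped.

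Gene length moved with the preparation. Genes under 1500 bases had a median log2 ratio of captured over whole of −1.08 in SH, and genes of 4500 bases or more one of 0.29. C1qb (1094 bases) lay 1.81 log2 units below the median of its length band, C1qc (1942 bases) 1.80 below and C1qa (1046 bases) 1.00 below. In SH Csf1r, at 4912 bases, lay 1.71 below the median of its band, and Mrc1, at 5980 bases, 0.48 above. Mertk, at 4360 bases, lay 0.59 above, farther than Mrc1. The distances of Cd68, Cx3cr1 and Cd163 were −1.025, −0.68 and −0.60. Aif1 lay 0.080 below. In EE the distances were −1.36 for C1qb, −1.30 for C1qc, −0.69 for C1qa, −1.33 for Csf1r and 0.67 for Mrc1, and Aif1 lay above its band by 0.35. Those of Mertk, Cd68, Cx3cr1 and Cd163 in EE were 0.019, −1.08, −0.38 and −0.14. The part of length in each ratio was not tested.

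**Figure D3:**
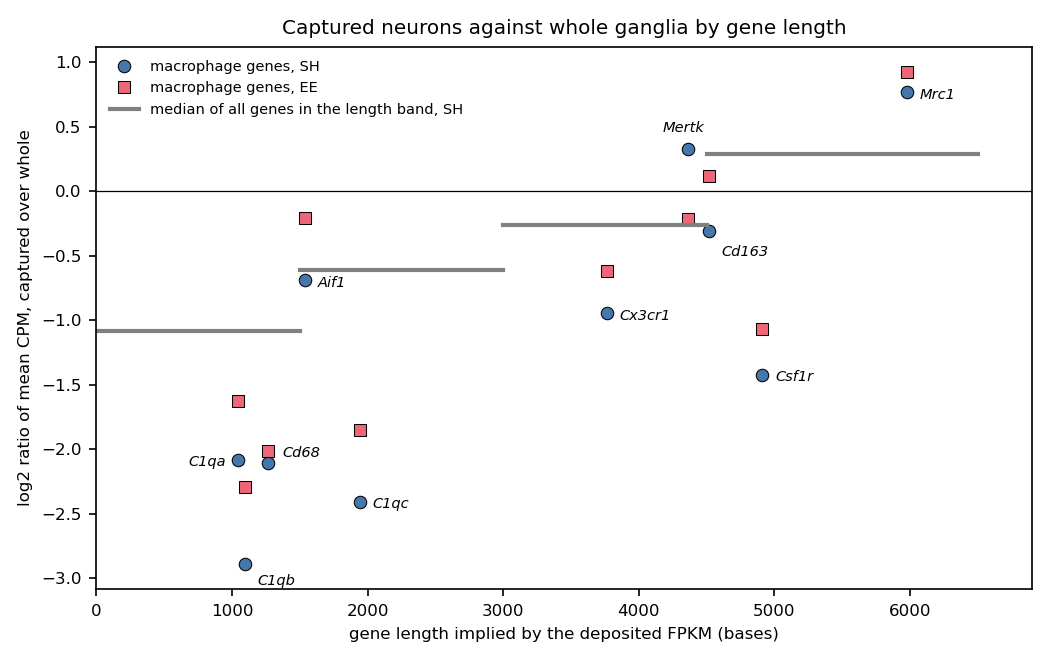
Log2 ratio of mean CPM, captured over whole (vertical axis), against the gene length implied by the deposited FPKM (horizontal axis, bases) for the 10 genes in SH and EE, with grey lines for the median of all genes in each of 4 length bands in SH. C1qb lies at −2.90 and Mrc1 at 0.77 in SH; the last band has no upper limit and is drawn only as far as the axis needs.

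The make-up of the set differed between the preparations. The same length per gene was used in both, so the shift with gene length described above remains in the shares. Per length, the 3 C1q genes held 67.9 ± 2.36% of the summed level of the 10 in whole DRG of SH mice and 61.6 ± 2.26% in EE. In captured neurons they held 31.2 ± 1.36% in SH and 32.6 ± 5.39% in EE. The Mertk share was 8.24 ± 1.58% and 13.6 ± 0.84% in whole DRG and 26.8 ± 2.98% and 24.0 ± 8.60% in captured neurons (SD, n = 3 for each). Among the C1q chains, C1qb stood above C1qa per length in all 6 whole DRG libraries and below it in all 6 captured ones.

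**Figure D4:**
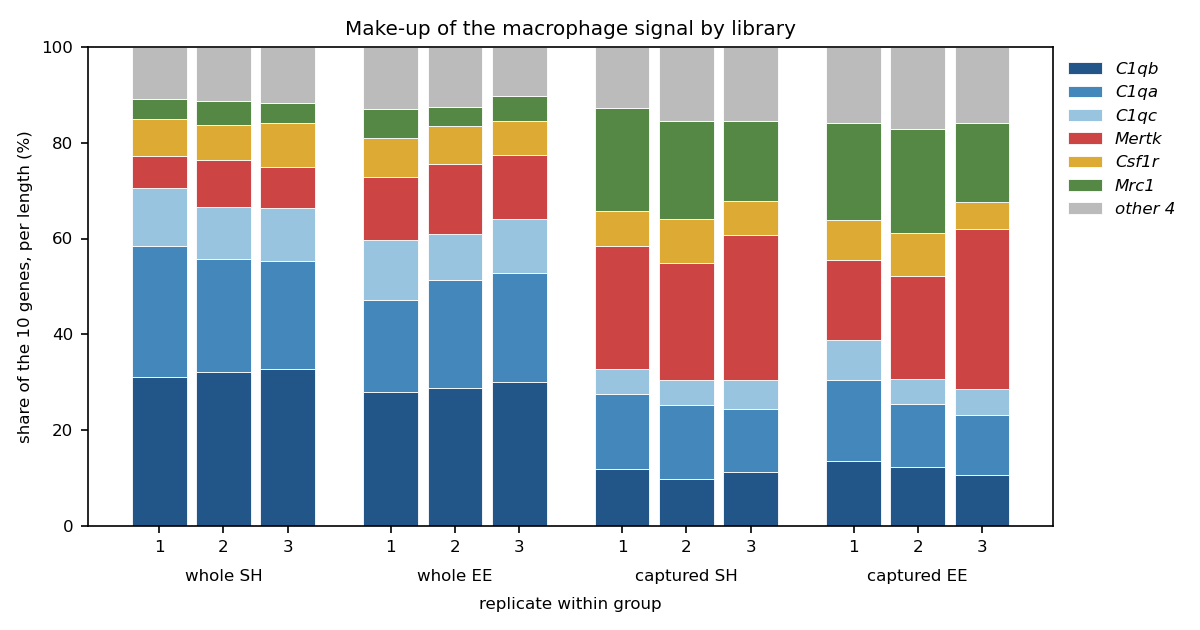
Share of each gene in the summed per-length level of the 10 genes (vertical axis, percent) in each of the 12 libraries (horizontal axis), with the other 4 genes, Cd68, Cd163, Aif1 and Cx3cr1, pooled in grey. The blue C1q segments together hold 67.9% on average in whole DRG of SH mice and 31.2% in captured neurons of SH mice.

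Within whole DRG, the ratio of Mertk to Csf1r counts was 0.746, 1.16 and 0.841 in SH and 1.41, 1.63 and 1.64 in EE, without overlap. In captured neurons it was 3.08, 2.43 and 3.83 in SH and 1.79, 2.18 and 5.38 in EE, with overlap. Over the 6 whole DRG libraries, the genes whose log2 CPM ran most like Mertk were Tomt (Pearson r 0.994), Ptcd1 (0.983), Cd97 (0.977), Dfna5 (0.975) and Mark3 (0.965), out of 10195 genes with at least 10 CPM. Those most like the C1q sum were Clec2d (0.991), Bcorl1 (0.990), BC031181 (0.985), Mmp2 (0.981) and Ndn (0.979). These 6 libraries share housing groups and lanes, and the genes were picked for their likeness, so the r values are a description.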

How the data were processed

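RNA sequencing of whole DRG and of captured large neurons was used as deposited. The authors deposited whole-number read counts per gene and, for whole DRG, FPKM. Per the submitters' processing notes the tools were HTSeq 0.6.0, SAMtools 0.1.19, TopHat2 2.0.12, Bowtie2 2.2.3, FastQC 0.10.1, and edgeR 3.8.6 and limma 3.22.7 in R 3.1.1, with build mm10; their roles and the strand setting are not given in the sources used here. The 5 summary rows without a gene, 56.3 to 56.7% of the column total in whole DRG and 42.3 to 49.8% in captured libraries, were left out. The deposited FPKM were proportional to counts in 100% of 17255 genes (within 1%) and gave gene lengths; captured levels per length use these lengths. The second deposited table of captured values was a constant multiple of the counts and was not used.

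Counts were tested with edgeR 4.0.16 (R 4.3.3; TMM, filterByExpr, quasi-likelihood F test, Benjamini-Hochberg adjustment over all genes tested, threshold 0.05) in each preparation alone, and in one fit over all 12 libraries for the difference. SE is the log2 fold change divided by the root of F. Alternatives were DESeq2 1.42.0, limma-voom (limma 3.58.1), other scalings and filters, lane 3 alone, a replicate block and leaving out each library. Whole DRG replicate numbers follow the sequencing lanes (4, 5 and 6), and same-numbered libraries had positive correlations of their deviations (r 0.33, 0.15 and 0.10). Those of differently numbered libraries ran from −0.33 to 0.19, so the ranges overlapped. The scripts were tested on simulated counts. The common biological coefficient of variation was 0.0741 in whole DRG and 0.121 in captured libraries. Counting error only is covered where reads are given, since reads carry no molecular identifiers.

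The members and lists were chosen with earlier results of these data known. All 10 members, 11 ligand, receptor and pathway genes and up to 3 genes of each list with the smallest unadjusted p could be named. The genes most like Mertk and the C1q sum were ranked by Pearson r of log2(CPM + 0.5). Older symbols were matched through RefSeq synonyms, and 3 erythrocyte genes had no row.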

Additional observations from a re-analysis of the deposited data

How the results depend on the processing

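In whole DRG 1 gene passed the threshold; it was 0 with library size alone or a minimum average log2 CPM of 1, 48 with no filter, 32 with the replicate block and 0 to 2 with a library left out. In captured neurons 3 passed; it was 902 with no filter, 1 with the minimum of 1, 522 with DESeq2, 106 at an adjusted p under 0.1, 658 in lane 3 alone and 0 to 602 with a library left out (602 without EE replicate 1). With the replicate block it was 0 there; captured numbers do not follow lanes, and same-numbered libraries correlated at 0.09, −0.008 and 0.12. The difference between preparations gave 0 genes, 457 with no filter, 145 with DESeq2, 13 at an adjusted p under 0.1 and 0 to 233 with a library left out. The summed level of the 10 genes, captured over whole in EE, was −0.45 (log2), −0.26 with TMM and −0.25 with median-of-ratios factors.

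Of the member values, 661 under the alternatives kept direction and call, 4 newly passed and 20 turned direction; the cause was not tested. All but 2 of the 20 came from leaving out 1 library. Over those, whole DRG gave −0.35 to 0.168 for Aif1 (positive without EE replicate 1), −0.43 to 0.0912 for Cd68 (without EE replicate 3) and −0.17 to 0.0027 for Csf1r (without SH replicate 3). Captured neurons gave −0.63 to 0.454 for Cd68 (0.205 without EE replicate 2, 0.454 without SH replicate 2; 0.239 with limma-voom, 0.131 in lane 3) and −0.218 to 0.34 for Mertk (−0.218 without EE replicate 3, −0.0151 without SH replicate 2). The difference gave −0.407 to 0.68 for Cd68 (−0.407 without captured SH replicate 1, −0.236 and −0.00767 without captured EE replicates 1 and 3, −0.203 without whole EE replicate 3, −0.0313 without whole SH replicate 2) and −0.0144 to 0.38 for Mrc1 (−0.0144 without captured SH replicate 3). Captured over whole gave −0.66 to 0.0333 for Cd163 in SH (0.0066 without captured SH replicate 2, 0.0333 without whole SH replicate 3), −0.52 to 0.0309 for Aif1 in EE (0.0156 without captured EE replicate 3, 0.0309 without whole EE replicate 2) and −0.0067 to 0.25 for Cd163 in EE (−0.0067 without whole EE replicate 1). Cd68 in captured neurons rests on 2 to 24 reads per library.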
